A study of Arabidopsis thaliana with 4 samples.

Results

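The comparison described here is that of rosette leaves of a double mutant (dko) of the genes TRIC1 (AT3G49560) and TRIC2 (AT5G24650) with rosette leaves of wild-type Arabidopsis thaliana of the accession Col-0. Its members are the loci that reached 1 FPKM or more in at least 1 of the rosette groups, 17766 of the 34133 loci listed, where FPKM counts sequenced fragments per length of transcript, scaled to the library. For each member the ratio is log2((dko + 1)/(wild type + 1)) of the FPKM values, so that a positive ratio means a higher level in the dko. Within them, 470 loci had a rosette ratio of 1 or more in size and a ratio under 0.3 in size in whole seedlings of the same genotypes. These are called leaf-only here, and 133 of them were higher and 337 lower in dko rosettes.

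Both genotypes were grown at 22 °C in a 16 h photoperiod, after 2 days of stratification at 4 °C on MS medium. Rosette leaves were taken at 4 weeks from plants moved to soil on day 5, and seedlings were taken at 2 weeks, so age and growth on soil differ between the tissues as well as the organs collected. Each group is stated to hold 3 replicates, whose nature (plants, pools or libraries) is not stated. The q-values therefore speak for these samples alone, and the spread that enters them may be technical. RNA sequencing was done on total RNA depleted of ribosomal RNA, and the deposited values are 1 pooled FPKM per locus and group, with no value per replicate. No standard deviation can therefore be given, whether the replicates of both genotypes overlap cannot be seen, the sequencing depth is unknown, and error enters only through the Cuffdiff q-value in the authors' deposited table. A call below means a q under 0.05 in that table, and unless a sentence says otherwise every rosette gene given with values passed it. The seedling and rosette values were scaled separately, so levels in the tissues stand side by side only, and differences between tissues were not tested.

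TRIC1 and TRIC2 belong to the protein family of the Tim17, Tim22 and Tim23 translocases of the mitochondrial inner membrane and have a reported role in bringing tRNA into mitochondria. Plant mitochondria that do not work properly signal to the nucleus, and the response includes alternative oxidase, chaperones, detoxification enzymes and NAC transcription factors. Expanding leaves need wall-loosening proteins, new wall polymers and microtubules, while expanded leaves also carry a defence system based on salicylic acid and one based on jasmonate and ethylene.

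TRIC1 went from 34.7 to 10.7 FPKM in rosettes and TRIC2 from 17.5 to 0.0690 FPKM, and TRIC2 did not pass the test in rosettes (q = 0.146 in the authors' deposited table). No source used here gives the positions of the mutations, so the TRIC1 signal that remained cannot be placed in its transcript. Against the leaf label, 10 root markers summed to 1.82 FPKM in wild-type and 1.31 FPKM in dko rosettes, with 5 of them listed at 0 in both, and 5 of 8 markers of the shoot meristem and flower were listed at 0 in both. All 5 mesophyll markers were members, with a sum of 8241 FPKM in wild-type and 5072 FPKM in dko rosettes, and 3 of them fell. In bulk samples fewer cells of a type and less RNA per cell cannot be told apart.

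The size of the response was compared over the same loci in both tissues, as a description with no test, since members were chosen by their rosette level alone. The median size of the ratio was 0.278 in rosettes and 0.177 for the same members in seedlings, and 53.1% of members in rosettes against 71.4% in seedlings had a ratio under 0.3 in size. The median rosette ratio itself was 0.01, with quartiles at -0.27 and 0.28. Of 17677 members tested, 1403 rose (7.94% called) and 1600 fell (9.05%), which makes 3003 calls or 17%. Counts of calls in the lists and families below stand beside these shares. In seedlings 3049 of the 17403 members with a test were past q 0.05 in the authors' deposited table, so the number of calls was close in both tissues. A ratio of 1 or more, a doubling on this scale, was reached by 554 loci (3.12% of members), and a ratio of -1 or less by 715 (4.02%).

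**Figure D1:**
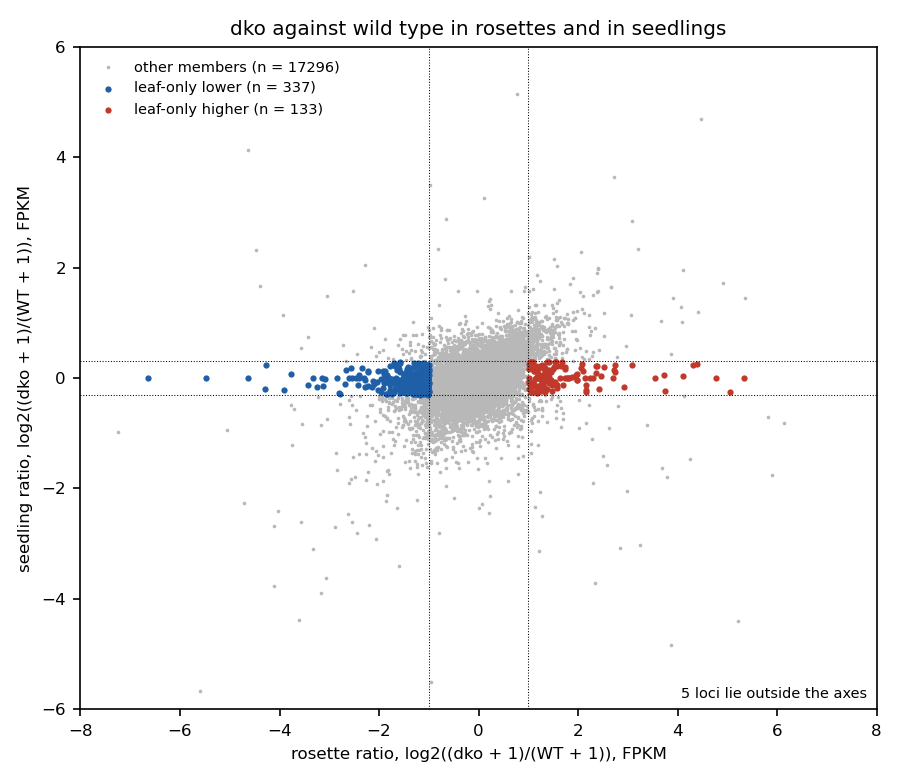
Rosette ratio (x axis) against seedling ratio (y axis), both log2((dko + 1)/(WT + 1)) of pooled FPKM, for the 17766 members. Dotted lines mark 1 and -1 in rosettes and 0.3 and -0.3 in seedlings, red and blue points are the 133 leaf-only higher and 337 leaf-only lower loci, and 5 loci lie outside the axes.

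The loci past a ratio of 1 in size were then split by what they did in seedlings. Of the 554 at 1 or more, 89 were also at 1 or more in seedlings, 262 lay between 0.3 and 1, 133 (24.0%) stayed under 0.3 in size, and 49 and 21 moved the opposite way by less or by more than 1. Of the 715 at -1 or less, 96 were at -1 or less in seedlings, 229 lay between -1 and -0.3, 337 (47.1%) stayed under 0.3 in size, and 44 and 9 moved the opposite way. Leaf-only loci thus made up 0.749% of members in the higher direction, 1.9% in the lower and 2.65% in both, and these shares follow from the rule that chose them. As a description, 86 of 118 tested leaf-only higher loci and 289 of 325 tested leaf-only lower loci were past q 0.05 in the authors' deposited table for rosettes. In seedlings, of the 103 higher and 292 lower leaf-only loci with a test, 0 were past it in either direction. The seedling limit of the rule largely sets that result.

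**Figure D2:**
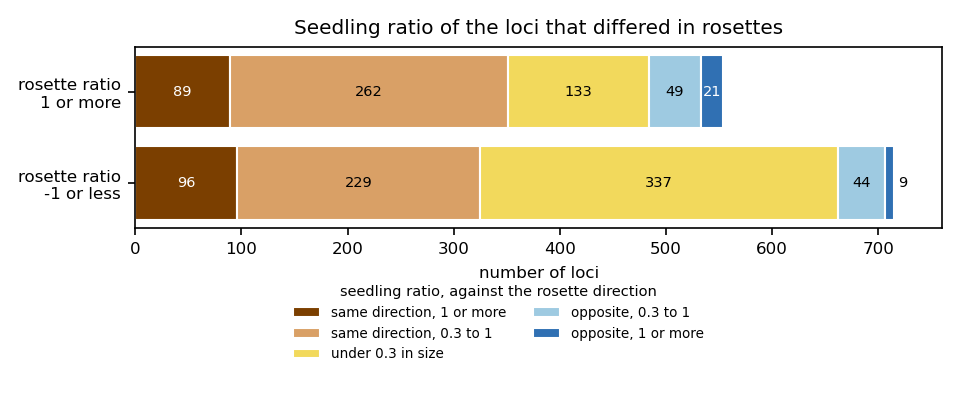
Number of loci (x axis) with a rosette ratio of 1 or more (upper bar) or -1 or less (lower bar), split by their seedling ratio. The yellow part, the leaf-only loci, is 133 of 554 in the upper bar and 337 of 715 in the lower.

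The leaf-only genes had low to middling levels. The median of the higher set went from 1.96 FPKM in wild type to 8.02 FPKM in the dko, beside 2.74 and 3.03 FPKM in the seedling groups, and that of the lower set from 8.03 to 1.97 FPKM, beside 10.9 and 9.73 FPKM. Most lower loci sat close to the threshold, with 249 of 337 under 1.5 in size, against 81 of 133 higher loci, and 30 higher and 38 lower loci were 2 or more in size. In wild-type rosettes 19 higher loci are listed at 0, and in dko rosettes 15 lower loci. The leaf-only share fell with the mean level of the locus, from 4.69% of members under 2 FPKM to 1.48% of those at 50 FPKM or more. The shares at 1 or more and at -1 or less, whatever the seedling ratio, did not fall steadily. They were 3.96% and 5.92% under 2 FPKM, 2.44% and 2.57% from 10 to 50 FPKM, and 3.23% and 5.07% at 50 FPKM or more. Single-exon genes made up 34.8% of the higher and 23.8% of the lower protein-coding leaf-only genes in the reference, beside 14.6% of all protein-coding members. Among all protein-coding loci past a ratio of 1 in size, whatever their seedling ratio, they made up 28.0% of the higher and 22.3% of the lower. A raised share is thus not particular to the leaf-only genes. In seedlings 35 of the higher loci (26.3%) and 53 of the lower (15.7%) were under 1 FPKM in both groups, where the pseudocount of 1 FPKM keeps ratios small.

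The leaf-only higher genes included enzymes that handle reactive or toxic molecules, some of large ratio and some close to the threshold. GSTU8 (AT3G09270, chr3:2848289-2849289), a glutathione transferase of the tau class, which joins glutathione to foreign or oxidised compounds, went from 0.444 to 46.7 FPKM in rosettes, 105-fold in the authors' deposited table, and stood at 4.52 and 3.63 FPKM in wild-type and dko seedlings. GSTU1 of the same class went from 0.741 to 6.72 FPKM, with 2.92 and 2.29 FPKM in seedlings, and GSTU9 from 1.96 to 5.04 FPKM, a ratio of 1.03. MSRB9, a methionine sulfoxide reductase that repairs oxidised methionine, went from 3.99 to 20.3 FPKM, and GLYI4, of the glyoxalase I family that clears methylglyoxal, from 0.741 to 5.84 FPKM. The superoxide dismutase gene CSD2, chosen after its values were seen, went from 18.3 to 40.4 FPKM and stood at 5.10 and 5.91 FPKM in seedlings. Such enzymes did not all rise. The peroxidase family had 45 members, of which 2 rose and 5 fell, with 0 leaf-only higher and 4 leaf-only lower. PRXR1 and APX1, given further below, were leaf-only lower.

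The glutathione transferase family as a whole did not move one way. Of its 31 members 4 rose and 9 fell, the median ratio was -0.24, and 5 (16.1%) were leaf-only, 3 higher and 2 lower, beside 2.65% of all members. GSTF12, a phi-class member needed for anthocyanin to reach the vacuole, was leaf-only lower at a ratio of -1.23, with 12.5 and 11.3 FPKM in seedlings. GSTU24 rose in rosettes, with a ratio of 1.66, and fell in seedlings, from 4.15 to 1.79 FPKM.

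Single genes of protein refolding and removal were leaf-only higher. HSP70 (AT3G12580), a cytosolic chaperone, went from 5.18 to 40.6 FPKM with 4.05 and 4.93 FPKM in seedlings, and HSP90.1, chosen after its values were seen, from 7.02 to 16.4 FPKM with 2.70 and 3.03 FPKM. NBR1, the receptor that brings ubiquitin-tagged cargo to autophagosomes, was abundant already in wild type and went from 143 to 353 FPKM, against 82.2 and 95.9 FPKM in seedlings. Of 13 autophagy genes 3 rose and none fell, with a median ratio of 0.22, and NBR1 was the 1 that was leaf-only; ATG8E, a membrane anchor of autophagosomes, went from 104 to 162 FPKM. The cysteine proteinase gene CP1 (AT4G36880) went from 0.159 to 7.78 FPKM and was under 1 FPKM in seedlings. Over the 41 members of the heat shock protein family, which HSP90.1 is not among because its description differs, 7 rose and 3 fell, with a median of 0.24. Leaf-only were 1 higher (HSP70) and 1 lower, AT5G47590, an HSP20 type protein, at 4.27 to 0.915 FPKM. Over all tested members 7.94% rose and 9.05% fell.

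Among the most abundant leaf-only higher genes were the lipocalin gene TIL, whose product protects membranes under heat and oxidative stress, at 135 to 408 FPKM, and BCB, a blue copper protein, at 145 to 347 FPKM. BCB stood at 20.2 and 19.7 FPKM in seedlings and TIL at 109.7 and 127 FPKM. The plastid gene rpl20, for a ribosomal protein, went from 1023 to 2296 FPKM, and the mitochondrial locus ATMG00160 from 1013 to 2131 FPKM. These 2 were the only leaf-only loci encoded in the organelles. Of 164 organelle-encoded members, 48 reached a ratio of 1 or more and 11 a ratio of -1 or less. Over all members these shares were 3.12% and 4.02%. AT3G45730, a gene of unknown function, went from 19.9 to 137 FPKM with 22.3 and 24.7 FPKM in seedlings, and AT1G13340, described as a regulator of Vps4 in the multivesicular body pathway, from 7.33 to 54.5 FPKM with 2.75 and 3.03 FPKM.

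Among transcription factor families, leaf-only higher were 1 of 42 WRKY, 1 of 55 NAC and 0 of 31 ERF and DREB members. For MYB and bHLH these were 0 of 46 and 2 of 65, beside 0.749% of all members. Such small counts are not read as a result. The ERF and DREB family, matched by name, leaves out ESE3 and AT5G21960, which were leaf-only higher. WRKY28, a transcription factor, went from 0.829 to 7.19 FPKM, ESE3, an ethylene-response-factor type of protein, from 6.17 to 29.2 FPKM, and NAC047 from 2.06 to 7.62 FPKM. AGC2-1 (AT3G25250), also known as OXI1, is a protein kinase activated by oxidative bursts, and its transcript went from 0.689 to 7.73 FPKM while both seedling groups stayed under 1 FPKM. AT5G21960, of the same DNA-binding superfamily as ESE3, went from 3.17 to 9.49 FPKM and stood at 0.157 and 0.142 FPKM in seedlings. LBD39, which represses nitrate-responsive genes, went from 0.687 to 3.12 FPKM, with a seedling ratio of -0.09. ABCB4, an auxin transporter, went from 6.57 to 34.8 FPKM with a seedling ratio of 0.01, and the MATE efflux gene AT2G04070 from 1.67 to 7.90 FPKM.

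**Figure D3:**
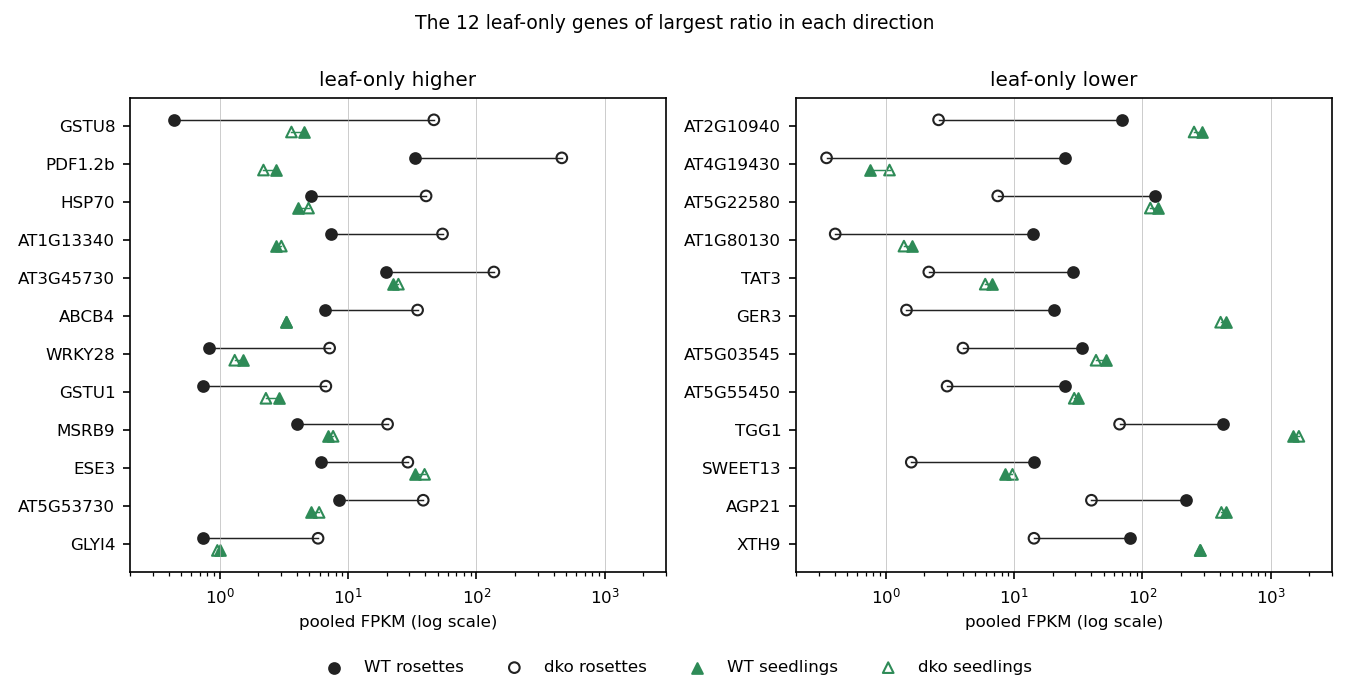
Pooled FPKM on a log scale (x axis) of the 12 leaf-only higher (left) and 12 leaf-only lower genes (right) of largest ratio that passed q 0.05 in rosettes and reached 1 FPKM in seedlings. Circles are rosettes and triangles seedlings, filled for wild type and open for the dko. GSTU8 goes from 0.444 to 46.7 FPKM in rosettes, while the seedling pairs lie close together, as the rule sets.

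Among plant defensin genes, PDF1.2b (AT2G26020), which encodes a small antifungal peptide and is induced by jasmonate and ethylene, went from 33.5 to 463 FPKM in rosettes, 13.8-fold in the authors' deposited table, and was at 2.74 and 2.19 FPKM in seedlings. Its relatives PDF1.2, PDF1.2c and PDF1.3 also rose but fell in seedlings by 1 or more, so they were not leaf-only. Of 7 members of the defensin-like family 4 rose and 1 fell, with a median of 3.75. The one that fell, AT3G05730, was leaf-only lower at 47.9 to 12.3 FPKM with 181 and 198 FPKM in seedlings. The PDF1.2 genes are near-identical copies whose reads can be shared, and no source used here says how such reads were assigned.

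Of 16 members of the mitochondrial stress response list 10 rose in rosettes and none fell, with a median ratio of 1.56 in rosettes and 0.38 in seedlings, beside 0.01 for all members in rosettes. UPOX, a mitochondrial protein gene induced by oxidative stress, went from 4.81 to 173 FPKM in rosettes and from 41.0 to 138 FPKM in seedlings, AOX1A, the stress-inducible alternative oxidase, from 37.5 to 99.3 and from 31.4 to 40.3 FPKM, and NAC013, a regulator of the response, from 3.48 to 16.2 and from 4.38 to 8.77 FPKM. Leaf-only were ABCB4, AT5G43450, an oxygenase gene that went from 25.1 to 68.4 FPKM with 17.3 and 16.2 FPKM in seedlings, and UGT74E2, a glucosyltransferase of an auxin precursor, which was at 0.0861 and 8.27 FPKM and did not pass the test (q = 0.162 in the authors' deposited table). OM66 and NAC017 were at -0.14 and -0.00 on the ratio scale and were not called.

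Promoters were read to see which known short motifs lie before the leaf-only genes, in the 250 bases upstream of the annotated start, on both strands. The mitochondrial dysfunction motif, bound by NAC013, is CTTG and CAAG or CACG with 5 bases of any kind between them. The GCC box, GCCGCC, is bound by ethylene response factors. The following promoters, from RefSeq TAIR10.1, are shown because they carry a motif before genes described here, with the motif in capitals. AT5G65660 (chr5:26246961-26247210, minus strand), a hydroxyproline-rich glycoprotein family gene chosen after its values were seen, went from 28.7 to 114 FPKM in rosettes and stood at 112 and 115 FPKM in seedlings. CYP81D8 (chr4:17571744-17571993, minus strand), a cytochrome P450 gene, is leaf-only higher too, while UPOX (chr2:9254128-9254377, plus strand) and the MATE gene AT2G04050 (chr2:1339469-1339718, minus strand) were higher in both tissues. PDF1.2b (chr2:11088873-11089122, plus strand) and AGC2-1 (chr3:9195084-9195333, plus strand) carry the GCC box.
AT5G65660: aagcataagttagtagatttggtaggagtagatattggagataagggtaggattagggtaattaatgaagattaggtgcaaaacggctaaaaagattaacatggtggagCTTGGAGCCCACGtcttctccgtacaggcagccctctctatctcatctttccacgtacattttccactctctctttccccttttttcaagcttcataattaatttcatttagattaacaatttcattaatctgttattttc
CYP81D8: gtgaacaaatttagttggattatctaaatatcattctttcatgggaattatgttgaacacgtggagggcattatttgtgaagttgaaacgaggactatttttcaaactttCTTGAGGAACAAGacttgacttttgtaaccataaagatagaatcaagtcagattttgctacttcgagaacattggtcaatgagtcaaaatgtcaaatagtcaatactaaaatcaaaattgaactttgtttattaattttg
UPOX: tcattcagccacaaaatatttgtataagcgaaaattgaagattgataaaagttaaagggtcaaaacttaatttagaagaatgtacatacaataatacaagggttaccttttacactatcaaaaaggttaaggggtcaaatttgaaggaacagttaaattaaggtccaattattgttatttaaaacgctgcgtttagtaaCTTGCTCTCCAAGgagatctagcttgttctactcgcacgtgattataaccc
AT2G04050: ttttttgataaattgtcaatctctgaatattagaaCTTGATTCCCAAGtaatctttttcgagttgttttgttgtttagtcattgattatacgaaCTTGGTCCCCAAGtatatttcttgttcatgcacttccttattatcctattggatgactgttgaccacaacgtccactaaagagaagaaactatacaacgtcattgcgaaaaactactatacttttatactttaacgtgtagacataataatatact
PDF1.2b: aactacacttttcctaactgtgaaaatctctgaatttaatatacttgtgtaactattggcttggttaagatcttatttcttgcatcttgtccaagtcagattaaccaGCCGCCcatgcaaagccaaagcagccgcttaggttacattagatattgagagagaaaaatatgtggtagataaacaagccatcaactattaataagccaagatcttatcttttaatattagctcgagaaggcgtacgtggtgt
AGC2-1: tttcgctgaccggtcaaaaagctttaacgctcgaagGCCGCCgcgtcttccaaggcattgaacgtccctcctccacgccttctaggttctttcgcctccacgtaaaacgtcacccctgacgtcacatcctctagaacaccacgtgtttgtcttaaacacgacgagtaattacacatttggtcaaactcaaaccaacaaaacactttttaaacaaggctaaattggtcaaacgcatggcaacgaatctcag

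The motif of UPOX starts 51 bases before the gene start, that of CYP81D8 140 and that of AT5G65660 141, and AT2G04050 has 2 matches, at 215 and 156. CYP81D8 went from 6.32 to 16.5 FPKM with 4.61 and 3.84 FPKM in seedlings, and AT2G04050 from 0.403 to 23.2 FPKM in rosettes and 2.78 to 13.8 FPKM in seedlings. A match to the mitochondrial dysfunction motif was found in 0.833% of promoters of protein-coding nuclear members, in 2.61% of leaf-only higher promoters (3 of 115), in 1.57% of leaf-only lower promoters (5 of 319) and in 5.54% of promoters of genes higher in both tissues (15 of 271). The GCC box was in 2.01% of member promoters, 5.22% of leaf-only higher promoters (6) and 0.94% of leaf-only lower promoters (3). Of the 6 leaf-only higher genes with a GCC box, PDF1.2b and AGC2-1 were called in rosettes, and AT4G09649, AT3G28899, AT1G71280 and AT3G05746 were not. Only the dko rosette value took AT4G09649 (2.50 FPKM), AT3G05746 (1.56 FPKM) and AT1G71280 (2.21 FPKM) past the floor of 1 FPKM. Every other group had a value of 0 for AT4G09649 and AT3G05746, and at most 0.296 FPKM for AT1G71280. The 5.22% thus rests in part on loci that became members through the group in which they were high. The motif counts are small and carry no test, and a match is not a site in use. Genes higher in both tissues reached a ratio of 1 or more in rosettes but needed less in seedlings. AT5G54100, for example, is among them with a seedling ratio of 0.31.

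Among the other motifs, the site II element TGGGCC was in 17.5% of member promoters and in 11.3% and 8.46% of leaf-only higher and lower promoters. It was in 21.0% of promoters of genes higher in both tissues and in 8.97% of those lower in both. The I-box GATAAG was in 12.5% of member promoters, 13.0% of leaf-only higher and 7.84% of leaf-only lower ones. The W-box core TTGAC, which WRKY proteins bind, was in 44.6%, 41.7% and 45.1% of them. The TGA box TGACG, which can overlap the W-box core in TTGACG, was in 19.3%, 19.1% and 21.0%, the G-box CACGTG in 7.35%, 4.35% and 7.21%, and the sulfur-responsive element GAGAC in 25.2%, 24.3% and 24.8%. For the CRT/DRE core CCGAC the shares were 13.3%, 14.8% and 12.2%, and for the ABRE ACGTGGC 3.89%, 2.61% and 4.39%. The evening element AAAATATCT was in 2.62%, 5.22% and 1.88%, P1BS GNATATNC in 5.54%, 6.96% and 7.52%, the heat shock element GAANNTTC in 9.58%, 6.96% and 11.6%, and the telo-box AAACCCTAA in 2.11%, 0% and 1.57%.

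Several families of the growing cell wall had leaf-only lower members. XTH enzymes cut and rejoin xyloglucan, a polymer that ties cellulose fibrils. Of 16 XTH members 8 fell and 1 rose, with a median ratio of -1.16 in rosettes and -0.10 in seedlings, and 5 (31.2%) were leaf-only lower. XTH9 went from 80.0 to 14.3 FPKM in rosettes and stood at 283 and 282 FPKM in seedlings, and XTH16 went from 9.12 to 2.78 FPKM with 32.7 and 32.3 FPKM. XTH8 and XTH32 were at 3.03 to 0.106 and 2.12 to 0.285 FPKM and were not called. XTH7, XTH25 and XTH4 fell in both tissues, XTH25 from 52.7 to 10.1 FPKM in rosettes and from 4.10 to 1.43 FPKM in seedlings. XTH28 was the one that rose, from 23.2 to 42.1 FPKM.

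Expansins, which loosen walls in acid, split by gene. Of 16 members 8 fell and 2 rose, with a median of -0.71. EXLB1 and EXPA4 were leaf-only lower, at 9.59 to 3.13 and 3.18 to 0.766 FPKM. EXPA1 rose from 9.84 to 47.2 FPKM and EXPA8 from 7.89 to 17.5 FPKM in rosettes, while both fell in seedlings, EXPA1 from 78.9 to 44.5 and EXPA8 from 43.4 to 18.3 FPKM.

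Structural proteins of the wall and the cell surface followed. Of 77 glycine-rich, proline-rich, extensin and arabinogalactan proteins 23 fell and 1 rose, the median was -0.48 in rosettes and 0.10 in seedlings, and 18 (23.4%) were leaf-only lower, beside 1.9% of all members. AGP21, an arabinogalactan protein, which is a heavily glycosylated proteoglycan of the cell surface, went from 219 to 40.1 FPKM with 452 and 412 FPKM in seedlings. The glycine-rich protein gene AT1G67870 went from 165 to 46.9 FPKM.

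The fasciclin-like arabinogalactan proteins, a pattern added after their values were seen, overlap that family except for FLA7 and FLA9, which lie outside it. They had 7 of 11 members that were leaf-only lower and 7 that fell, none that rose, and a median of -1.02 in rosettes against -0.03 in seedlings. FLA2 went from 15.8 to 2.44 FPKM with 36.0 and 32.0 FPKM in seedlings, FLA7 from 6.26 to 0.566 FPKM with 36.7 and 33.2 FPKM, and FLA1 from 2.26 to 0.324 FPKM with 27.2 and 28.8 FPKM. FLA11, known from secondary walls, was at 3.67 to 1.15 FPKM and was not called, and FLA9 fell in both tissues.

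Tubulins, the subunits of microtubules, which guide cellulose deposition, were also added after their values were seen. All 16 members had a negative ratio, from -2.78 to -0.15, 9 fell, and 3 were leaf-only lower. The upper end is AT1G50020, which was matched by its description and carries no tubulin symbol. Among the TUA and TUB genes the upper end is TUA5 at -0.27. TUA4 went from 42.7 to 9.72 FPKM with 205 and 176 FPKM in seedlings, TUA6 from 108 to 48.4 FPKM with 246 and 219 FPKM, and TUB3 from 14.8 to 6.06 FPKM with 103 and 89.2 FPKM. TUA2, which fell in both tissues, went from 19.5 to 1.98 FPKM in rosettes. The 6 actins, added in the same way, had 2 calls, both leaf-only lower, ACT3 at 3.49 to 0.934 and ACT11 at 3.87 to 1.16 FPKM. Tubulin copies such as TUA2 and TUA4 are near-identical and can share reads, so the value of each is uncertain.

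**Figure D4:**
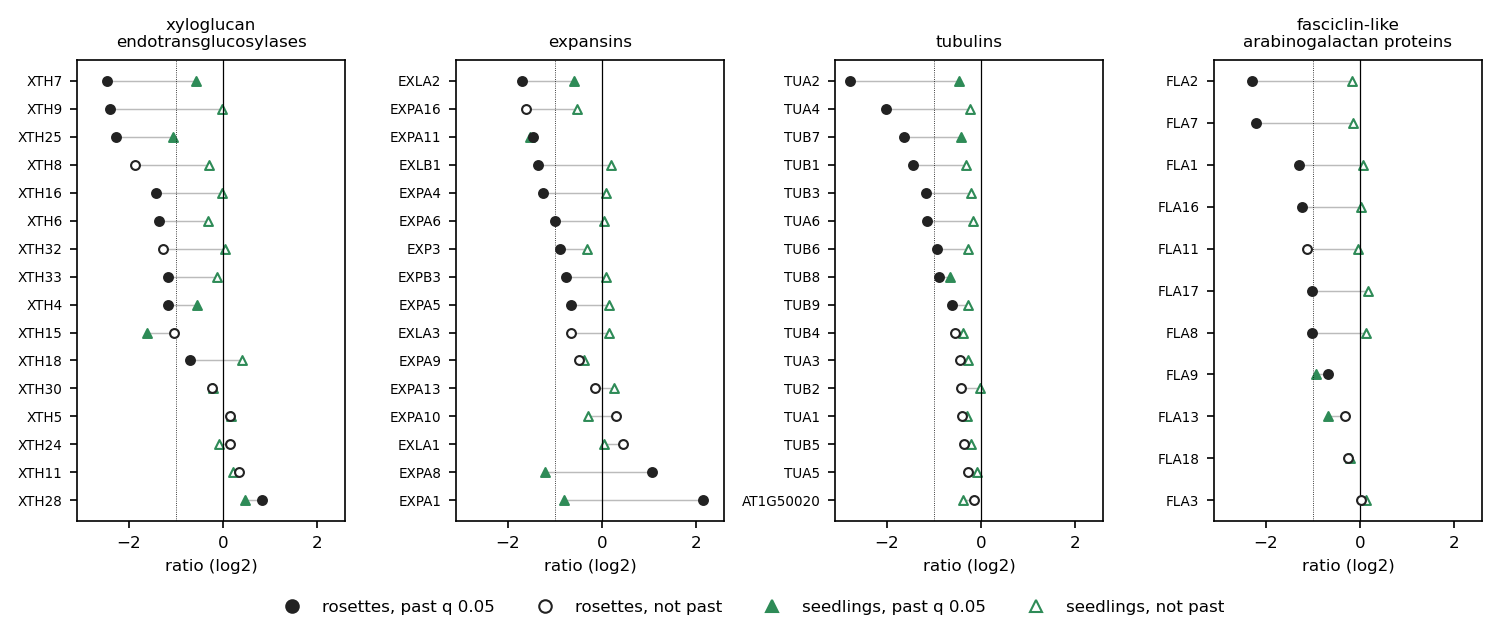
Ratio, log2((dko + 1)/(WT + 1)) of FPKM (x axis), of each member of 4 families in rosettes (circles) and seedlings (triangles), filled where the authors' deposited q-value is under 0.05. All 16 members of the tubulin family, with AT1G50020 matched by description only, lie below 0 in rosettes. EXPA1 and EXPA8 lie on opposite sides of 0 in the tissues.

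Other growth-related genes were in the same set. GASA4 and GASA1 are small cysteine-rich peptides regulated by gibberellin. GASA4 went from 20.5 to 3.59 FPKM with 489 and 530.0 FPKM in seedlings, and GASA1 from 428 to 169 FPKM with 83.2 and 75.3 FPKM. Of 13 genes of gibberellin and brassinosteroid, 6 fell and 3 rose, with a median of -0.15, and those that fell include the brassinosteroid synthesis genes BR6OX2, from 16.2 to 1.40 FPKM, DWF4, from 14.5 to 3.21 FPKM, and CPD, from 79.9 to 36.5 FPKM, all 3 of which fell in seedlings too. GID1B, a gibberellin receptor, rose from 3.94 to 8.59 FPKM. Of 15 auxin response genes 7 fell and 1 rose and none was leaf-only, IAA6 going from 4.03 to 0.902 FPKM. Lipid transfer proteins, which carry lipids to wall and cuticle, had 6 of 35 members leaf-only lower, 12 that fell, 3 that rose and a median of -0.34. AT2G10940 of this family (chr2:4310412-4312103) went from 69.2 to 2.59 FPKM with 290.5 and 253 FPKM in seedlings.

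Markers of cell types were counted beside the wall genes. Of 6 xylem members 4 fell, their median was -0.85 (-1.67 with a pseudocount of 0.1 FPKM), and the sum of the marker list went from 13.7 to 4.45 FPKM; XCP1 and XCP2, proteases of dying xylem cells, were leaf-only lower at 2.25 to 0.504 and 5.11 to 1.62 FPKM. Of 3 epidermis markers 0 were called, with a sum over the list of 83.4 and 66.6 FPKM, of 5 phloem markers 1 fell (SEOR1), and of 7 guard cell markers 1 fell (ALMT12). Negative rosette medians were not particular to xylem. They were -0.30 for epidermis, -0.41 for phloem, -0.40 for guard cells and -1.04 for mesophyll markers. Only 1 of 5 trichome markers and 0 of 6 markers of the stomatal lineage were members. The part of these cell types in the wall results was not tested.

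Of 32 members of the list of salicylic acid defence 15 fell in rosettes and none rose, with a median of -0.86 in rosettes and -0.12 in seedlings, and 4 (12.5%) were leaf-only lower. PR1, the usual marker of this pathway, went from 11.5 to 2.33 FPKM with 52.0 and 48.8 FPKM in seedlings, and PR5 from 12.4 to 4.66 FPKM with 13.7 and 13.5 FPKM. SARD1, a transcription factor that drives salicylic acid synthesis, went from 27.8 to 10.5 FPKM, and GRX480, a glutaredoxin that binds TGA factors, from 6.13 to 0.468 FPKM. GRX480 was at 0.204 and 0.168 FPKM in seedlings and was not tested there. WRKY38, NIMIN1, PCC1 and LURP1 fell in rosettes, with seedling ratios of -0.48, -1.22, -2.70 and -0.48. The receptor gene NPR1 stood at 26.3 and 26.3 FPKM in the rosette groups, and ICS1, the synthesis enzyme, at 8.32 to 6.98 FPKM; neither was called.

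Receptors and regulators tied to defence were counted too, beside 7.94% of all tested members that rose and 9.05% that fell. Leaf-only lower loci were 1.9% of all members. Of 32 cysteine-rich receptor-like kinases 11 fell and 1 rose, and CRK6, CRK7 and CRK23 were leaf-only lower, CRK6 at 15.3 to 6.25 and its neighbour CRK7 at 4.00 to 1.23 FPKM. Of 107 NLR disease resistance genes 16 fell and 2 rose, with 1 leaf-only. Of 42 WRKY genes 7 rose and 7 fell, WRKY58 and WRKY51 being leaf-only lower at 3.82 to 0.752 and 5.02 to 1.31 FPKM. NAC090 went from 18.6 to 5.76 FPKM and MRD1 from 16.0 to 1.01 FPKM, both under 1 FPKM in seedlings. Of 11 genes of pattern-triggered immunity, the recognition of microbial molecules at the cell surface, 1 rose, the kinase gene BIK1 from 16.0 to 24.0 FPKM, and none fell.

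For glucosinolate breakdown no list was counted, and a pair of its genes is named under other parts of the rule for named genes. TGG1, a myrosinase that releases the toxic products of glucosinolates, went from 428 to 66.4 FPKM with 1499 and 1656 FPKM in seedlings. ESM1, which steers those products, fell from 427 to 66.2 FPKM and just missed the leaf-only limit with a seedling ratio of 0.32. Among synthesis genes, of 17 aliphatic glucosinolate genes 2 rose (BAT5 and MYB28) and none fell, and of 11 indolic and camalexin genes none was called.

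Of the leaf-only lower genes with the largest differences in FPKM, PRXR1, a secreted peroxidase, went from 1225 to 439 FPKM with 1057 and 1045 FPKM in seedlings. AT1G23130, of a polyketide cyclase family, went from 1223 to 489 FPKM with 272 and 265 FPKM, and AT1G64370 from 670.1 to 253 FPKM with 186 and 163 FPKM. The ascorbate peroxidase gene APX1, which removes hydrogen peroxide in the cytosol, went from 315 to 151 FPKM with 285 and 311 FPKM. The snoRNA locus AT1G03502 was at 426 to 126 FPKM and was not called. Other genes of large ratio were GER3, a germin-like wall protein, at 20.3 to 1.45 FPKM with 449.6 and 407 FPKM in seedlings, TAT3, a tyrosine aminotransferase induced by wounding and jasmonate, at 28.9 to 2.17 FPKM, SWEET13, a sucrose exporter, at 14.3 to 1.58 FPKM, and AT5G22580, a stress-responsive barrel protein, at 126 to 7.47 FPKM with 133 and 115 FPKM in seedlings. AT5G03545, a transcript expressed under phosphate starvation, was at 34.1 to 4.00 FPKM. FAD3, which makes trienoic fatty acids in the endoplasmic reticulum and was chosen after its values were seen, went from 21.6 to 5.03 FPKM with 42.6 and 44.7 FPKM in seedlings.

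Genes for protein folding in the endoplasmic reticulum had 12 members, of which 6 fell and none rose, with a median of -0.54 in rosettes and 0.11 in seedlings. The lectin chaperones CRT3 and CNX1 were leaf-only lower, CRT3 at 50.4 to 18.8 FPKM with 18.8 and 17.8 FPKM in seedlings and CNX1 at 29.1 to 12.8 FPKM with 44.3 and 47.2 FPKM. BIP2 and BIP1, HSP70 chaperones of this compartment, fell from 17.0 to 8.28 FPKM and from 47.0 to 30.6 FPKM, and as close copies they can share reads. ERDJ3B, their co-chaperone, fell in rosettes from 8.23 to 3.75 FPKM and rose in seedlings from 7.65 to 10.1 FPKM.

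Of 22 Calvin cycle genes 13 fell, with medians of -0.80 in rosettes and -0.75 in seedlings, and 2 were leaf-only. CP12-1, a linker protein that holds enzymes of the cycle inactive in the dark, went from 297 to 75.8 FPKM with 123 and 104 FPKM in seedlings, and CP12-3 was at 3.65 to 1.09 FPKM. Of 17 photorespiration genes 4 fell and 0 were leaf-only, with GLDT, a subunit of glycine decarboxylase, going from 223 to 104 FPKM. Of 28 chlorophyll genes 3 fell, and SGR2 (AT4G11910), a stay-green protein, was leaf-only at 12.4 to 5.59 FPKM. Over all tested members 9.05% fell. Of 34 genes of starch and sugar 12 fell and 2 rose, none leaf-only. The 2 that rose were the sucrose exporters SWEET12, from 152 to 269 FPKM, and SWEET11, from 241 to 380.0 FPKM. SWEET13, also a sucrose exporter, is not on this list and was leaf-only lower with a ratio of -2.56.

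**Figure D5:**
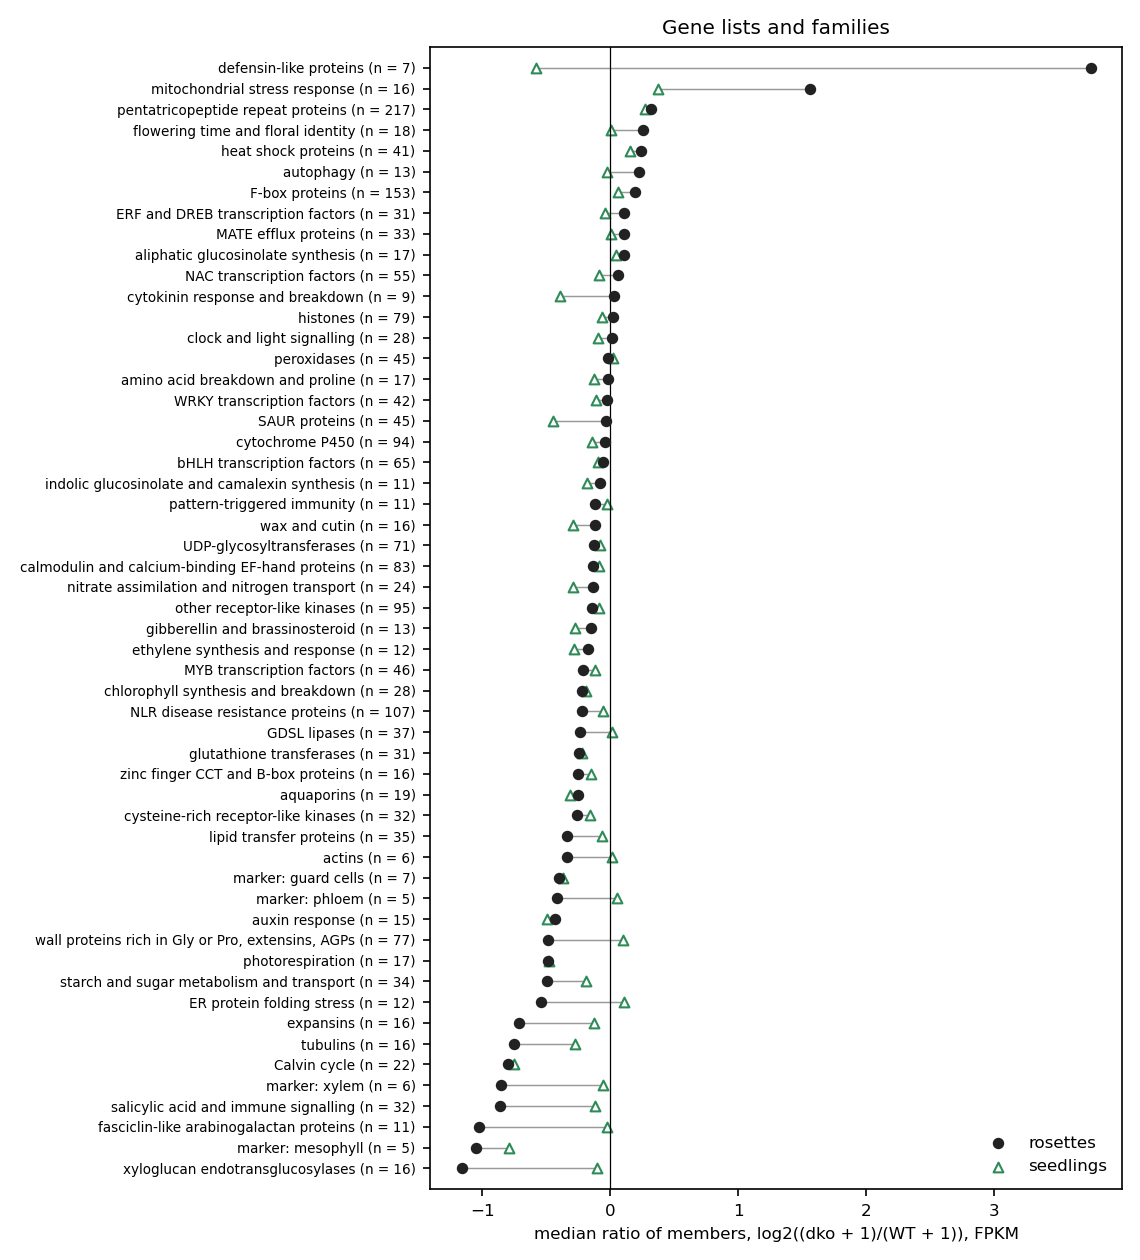
Median ratio of the members (x axis, log2((dko + 1)/(WT + 1)) of FPKM) of each gene list or family with 5 or more members, in rosettes (filled circles) and seedlings (open triangles). The median over all members is 0.01 in rosettes. XTH enzymes are lowest in rosettes at -1.16 and defensin-like proteins highest at 3.75.

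For nitrogen, clock and flowering genes the counts were small, beside 7.94% of all tested members that rose and 9.05% that fell, and nothing is read from them. Of 24 nitrogen genes 5 rose and 3 fell, with a median of -0.13. The glutamine synthetases GLN1;4, GLN2 and GLN1;3 fell, GLN1;4 from 67.8 to 22.7 FPKM, while ASN1, an asparagine synthetase induced in the dark, rose from 5.30 to 13.6 FPKM in rosettes and fell from 62.0 to 6.15 FPKM in seedlings. PRODH1, which degrades proline and belongs to the amino acid list, rose from 34.3 to 64.9 FPKM and fell in seedlings from 15.8 to 5.28 FPKM. Of 28 clock and light genes 1 rose (HY5) and 1 fell, ELF4, a member of the evening complex, which was leaf-only at 14.7 to 5.87 FPKM. Of 18 flowering genes 2 rose and 2 fell; AGL19 rose from 4.19 to 16.1 FPKM, FLC, a repressor of flowering, fell from 2.41 to 0.850 FPKM, and TSF, a relative of the florigen FT, was leaf-only lower at 2.71 to 0.838 FPKM. Of 12 ethylene genes 1 fell (EBF2), of 9 cytokinin genes none was called, and of 16 wax and cutin genes 5 fell, BDG from 2.06 to 0.489 FPKM.

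Some leaf-only genes lie side by side in the genome. The thioredoxin superfamily genes AT4G15670, AT4G15680 and AT4G15690 form a run of 3 and went from 3.49 to 9.66, from 1.19 to 5.50 and from 5.84 to 18.1 FPKM; as close copies they can share reads. AT5G55450 and AT5G55460, both of the lipid transfer family, were lower at 24.8 to 3.01 and 29.6 to 11.5 FPKM.

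Near the thresholds, HIPP22 (1.01) and UMAMIT46 (1.01) lay just inside the higher limit and LEW1 and AT5G64780, at 6.29 to 13.5 and 3.40 to 7.78 FPKM, just outside it. AT5G10760 and AT4G02630, at 36.7 to 17.9 and 8.71 to 3.85 FPKM, lay just inside the lower limit, and DIR6 and AT1G34060, at 1.45 to 0.224 and 62.5 to 30.8 FPKM, just outside. AT5G58390 and IQD24 had seedling ratios just under 0.3 in size, and FRUCT5 (-0.31) and XTH6 (-0.31) just over. LEW1 and DIR6 were not called. The abundant genes MT3, a metallothionein, and CCL were not called in rosettes. MT3 stood at 5604 and 5497 FPKM in the wild-type and dko groups, and CCL at 2578 and 2432 FPKM.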

How the data were processed

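Total RNA of rosettes and seedlings was depleted of rRNA, made into stranded libraries and sequenced, per the labels' protocols. Per the submitters' processing notes, the tools were Bowtie2, TopHat2, Cufflinks and Cuffdiff, all with version 2.2.0 beside their names, and the genome was TAIR10. For the annotation, the use of strand and reads with several matches, no source used here gives a setting. FPKM was deposited by the authors as 1 pooled value per locus and group in 1 table per tissue, per the file headers, together with a log2 ratio of dko over wild type, a Cuffdiff test score that is not printed here, a p-value and a q-value. The authors deposited no replicate values in these tables as analysed here, so no test of replicates was run, and the planned use of the deposited q-value (threshold 0.05) was kept. Depth is unknown. A value of 0 can be a failed estimate, so such loci are described as listed at 0.

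From these tables the ratio log2((dko + 1)/(wild type + 1)) was computed with a pseudocount of 1 FPKM over loci with 1 FPKM or more in a rosette group, which understates changes of low genes. Of the 34133 loci, 16367 lay below that floor (10168 at 0 in both groups, 69 past q 0.05). Of the members, 86 were not tested and 3 are marked as holding too many fragments. Leaf-only loci were chosen by their values, so these are a description. Lists (30, with 470 entries, all in the table) and 30 families, by patterns on reference symbols and descriptions, give counts and medians with no set test. The members and lists were chosen with earlier results of these data known, and family patterns were corrected after names were seen. Names, exons and promoters come from RefSeq TAIR10.1, which holds 31510 of the loci. Table starts count from 0: 11506 nuclear starts matched the reference once 1 was added, and 135 as deposited. Promoters were read for 27437 genes and searched for 15 motifs.

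Genes named are the targeted genes; per direction 12 leaf-only genes of largest ratio, 5 under 1 FPKM in seedlings and 6 of largest FPKM difference; up to 4 leaf-only and 4 other called members of each list or family; up to 5 per direction that moved oppositely in the tissues; 2 on each side of each threshold; and 3 abundant genes. AOX1A, OM66, NAC017, NPR1, ICS1, SWEET11, XTH28, FLA11, CSD2, HSP90.1, FAD3, AT5G65660, AT5G55460 and the AT4G15670 run were chosen outside this rule, after their values were seen, as were the promoters to print. Ratios were tested on simulated data. Python 3.11.15 with pandas 2.3.3, numpy 2.4.6 and matplotlib 3.10.9 were used. Alternatives were other pseudocounts, floors, seedling limits and q thresholds, recentring, and leaving out organelle-encoded loci.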

Additional observations from a re-analysis of the deposited data

Results flagged for a closer look

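Loci whose ratio was 1 or more in size in both tissues but of opposite sign numbered 20 higher in rosettes and lower in seedlings, and 9 the other way, with loci of transposons, rRNA, tRNA and nuclear loci with no entry in the reference left out (21 and 9 with them). The difference between tissues was not tested for any of them. The 5 largest in each direction are given here with their rosette ratio. PDF1.3 had a ratio of 5.90, from 3.36 to 259.7 FPKM in rosettes, and went from 5.61 to 0.945 FPKM in seedlings. PDF1.2c had 4.25, from 53.6 to 1035 FPKM in rosettes and from 9.58 to 2.81 FPKM in seedlings, and PDF1.2 had 3.79, from 158 to 2185 FPKM and from 25.1 to 6.53 FPKM. These 3 defensin genes are close copies that can share reads, and each passed q 0.05 in both of the authors' deposited tables.

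The other 7 were not called in rosettes. AT2G07807 had a ratio of 5.22, being listed at 0 in wild-type rosettes and in dko seedlings, and AT1G53541 had 3.87 in the same way. AT3G26539 had -4.64 and AT3G19663 -4.48, both listed at 0 in dko rosettes and in wild-type seedlings. AT2G01021 had -4.39, from 1896 to 89.2 FPKM in rosettes and from 139 to 443 FPKM in seedlings. Loci of rRNA were left out by annotation alone, and whether the reads of AT2G01021 come from rRNA was not tested. AT4G25707 had -3.92 and is listed at 0 in dko rosettes, and the snoRNA locus AT3G14475 had -3.05, from 91.8 to 10.2 FPKM.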

How the results depend on the processing

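With a pseudocount of 0.1 the loci at a ratio of 1 or more went from 554 to 880, those at -1 or less from 715 to 1233, and the leaf-only lower loci from 337 to 581; 103 of the leaf-only higher and 292 of the leaf-only lower loci were shared by both pseudocounts. Leaf-only higher loci went from 133 to 86 when q 0.05 was required, to 87 with a seedling limit of 0.2 and to 208 with a limit of 0.5. Leaf-only lower loci went to 216 with a floor of 5 FPKM. Calls at q 0.01 in the authors' deposited table were 807 higher and 955 lower, against 1403 and 1600. The other alternatives moved no count by more than 1.5 times. Of 55 list and family medians 0 changed sign with the pseudocount or when recentred, and of 299 named gene ratios 0 changed sign with the pseudocount. No paired analysis was possible because each group is deposited as 1 pooled value, and for the same reason no replicate could be left out. Depth being unknown, low genes carry the least certain ratios.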

Other observations

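Pentatricopeptide repeat proteins, which process RNA in mitochondria and chloroplasts, had 56 of 217 members that rose in rosettes and none that fell, with medians of 0.32 in rosettes and 0.27 in seedlings, and 0 were leaf-only. AT2G27775 rose from 4.36 to 17.3 FPKM and EMB175 from 1.87 to 5.50 FPKM. Among 153 F-box proteins, which pick substrates for ubiquitin ligases, 18 rose and 6 fell, and 3 were leaf-only higher, beside 0.749% of all members. Over all tested members 7.94% rose and 9.05% fell, and counts near these shares are not read as a result. Of 46 MYB genes 3 rose and 11 fell, MYB59 going from 23.1 to 6.62 FPKM, and MYB2 and MYB10 were leaf-only lower. Aquaporins had 4 of 19 members that fell and none that rose, PIP1;5 going from 175 to 87.5 FPKM. Of 55 NAC genes 9 rose and 5 fell, and ANAC087 rose from 0.914 to 39.9 FPKM in rosettes and from 2.36 to 6.70 FPKM in seedlings. Among B-box proteins BZS1 rose from 3.28 to 9.98 FPKM while BBX14 and BBX15 fell, from 92.8 to 41.1 FPKM and from 112 to 53.9 FPKM. The cytochrome P450 gene CYP707A1, whose product degrades abscisic acid, fell in rosettes, with a ratio of -2.56 there and -0.33 in seedlings.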
